A study of Mus musculus with 6 samples.

Results

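The unfolded protein response and ER-associated degradation (ERAD) were followed through 34 genes, listed by their known roles in the pathway. No threshold was set on their values, but the list was chosen with earlier results of these data known. The 34 genes comprised 5 sensors and transcription factors, 14 chaperones and folding enzymes, 9 ERAD genes and 6 targets of PERK and ATF4. All 34 were measured, among 19938 genes with a probe set that the platform annotation pairs with 1 gene symbol. Where a gene had several such probe sets, the brightest by its mean over all 6 arrays was used. RNA came from early mammary tumors, 3 of the JAM-A-/- genotype (tumors 5333, 5346 and 5347, labelled MMTV-PyMT JAM-A KO) and 3 of the JAM-A+/+ genotype (tumors 5369, 5370 and 5393, labelled MMTV-PyMT), with 1 Affymetrix Mouse Gene 1.0 ST array for each tumor. Both groups carried the polyoma middle T oncogene (MMTV-PyVmT) under the mouse mammary tumor virus promoter, which is active in mammary epithelium, and the JAM-A-/- mice lacked JAM-A in every cell. The JAM-A+/+ mice were littermates, though no litter is assigned to single tumors, and ages and sexes are not in the labels. The labels also do not state if each tumor came from a mouse of its own, so p-values cover only the spread between these tumors, which may be technical in part.

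Proteins that enter the secretory pathway fold in the endoplasmic reticulum (ER), and an excess of unfolded protein there is sensed by PERK, IRE1 and ATF6. ATF6 and XBP1, whose mRNA is spliced by IRE1, induce chaperones and the machinery that sends misfolded proteins back to the cytosol for degradation (ERAD), while PERK slows translation and thereby favours synthesis of ATF4, which induces genes of amino acid supply, redox balance and cell death. Secretory tissues such as the lactating mammary gland use this response in normal life. The probe sets measured total transcript, so neither XBP1 splicing nor the translation of ATF4 was seen.

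The deleted gene was checked first. F11r, which encodes JAM-A, read 5.91, 5.55 and 6.53 (log2) in JAM-A-/- tumors and 10.1, 10.23 and 10.47 in JAM-A+/+ tumors. The log2 fold change, always given as JAM-A-/- minus JAM-A+/+, was -4.27 (limma, adjusted p = 0.00667), and this was the only probe set on the array to pass the Benjamini-Hochberg adjustment (0.00281% of all probe sets). The medians of the 6 arrays lay between 6.23 and 6.34, but the distance between their quartiles differed, at 3.41, 3.61 and 3.74 in JAM-A-/- tumors and 3.27, 3.5 and 3.53 in JAM-A+/+ tumors. Tumor 5369 had the narrowest distribution, followed by tumor 5333.

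All 34 genes of the response had a log2 fold change above 0, with a median of 0.26, against 71.8% of all genes above 0 and a median of 0.09. They were then compared against criteria set for this reading of the data, a fold change of at least 1.3 with an unadjusted p under 0.05 in limma, since the study's methods do not state how the arrays were tested. Sel1l, Herpud1, Eif2ak3, Xbp1, Trib3 and Canx met them, all higher in JAM-A-/- tumors, and none was lower. These 6 genes are 17.6% of the 34, and 4.73% of all genes met the criteria upward and 0.592% downward. Because the list was chosen with earlier results known, such shares describe it and carry no test. Derl1, Derl2 and Edem2 also had an unadjusted p under 0.05 but lay just under the fold threshold, at log2 fold changes of 0.38, 0.36 and 0.34, which made 9 genes of the 34 with such a p, against 7.18% of all genes higher with such a p. No gene of the 34 passed the adjustment over all probe sets, and the smallest adjusted p was 0.247 in limma, for Sel1l. The groups of tumors did not overlap for 10 of the 34, all higher in JAM-A-/-, against 12.4% of all genes higher and 2.55% lower.

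The 34 genes were bright on these arrays, and bright genes were higher in JAM-A-/- tumors as a whole. Among the 4982 brightest genes, where 27 of the 34 lay, the median log2 fold change was 0.19 and 10.1% of genes met the criteria upward and 18.8% had separate groups with JAM-A-/- higher. Of the 27, 5 met the criteria. Quantile normalization over the probe sets with 1 symbol, which gives all arrays the same distribution over named genes, moved the median of all genes to 0.0. After it 22 of the 34 remained above 0, against 49.7% of all genes, with a median of 0.06. Herpud1 alone of the 34 met the criteria, with 1.78% of all genes meeting them upward and 1.57% downward. Among the 4982 brightest genes 2.15% met them upward under this scaling. Separate groups, higher in JAM-A-/-, were then seen for 6 of the 34, against 7.28% of all genes and 11.1% of the brightest, with 8.59% of all genes separate in the other direction. The general upward direction of the response therefore depended on the scaling of the arrays. Values below are the deposited ones unless the normalization is named.

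**Figure D1:**
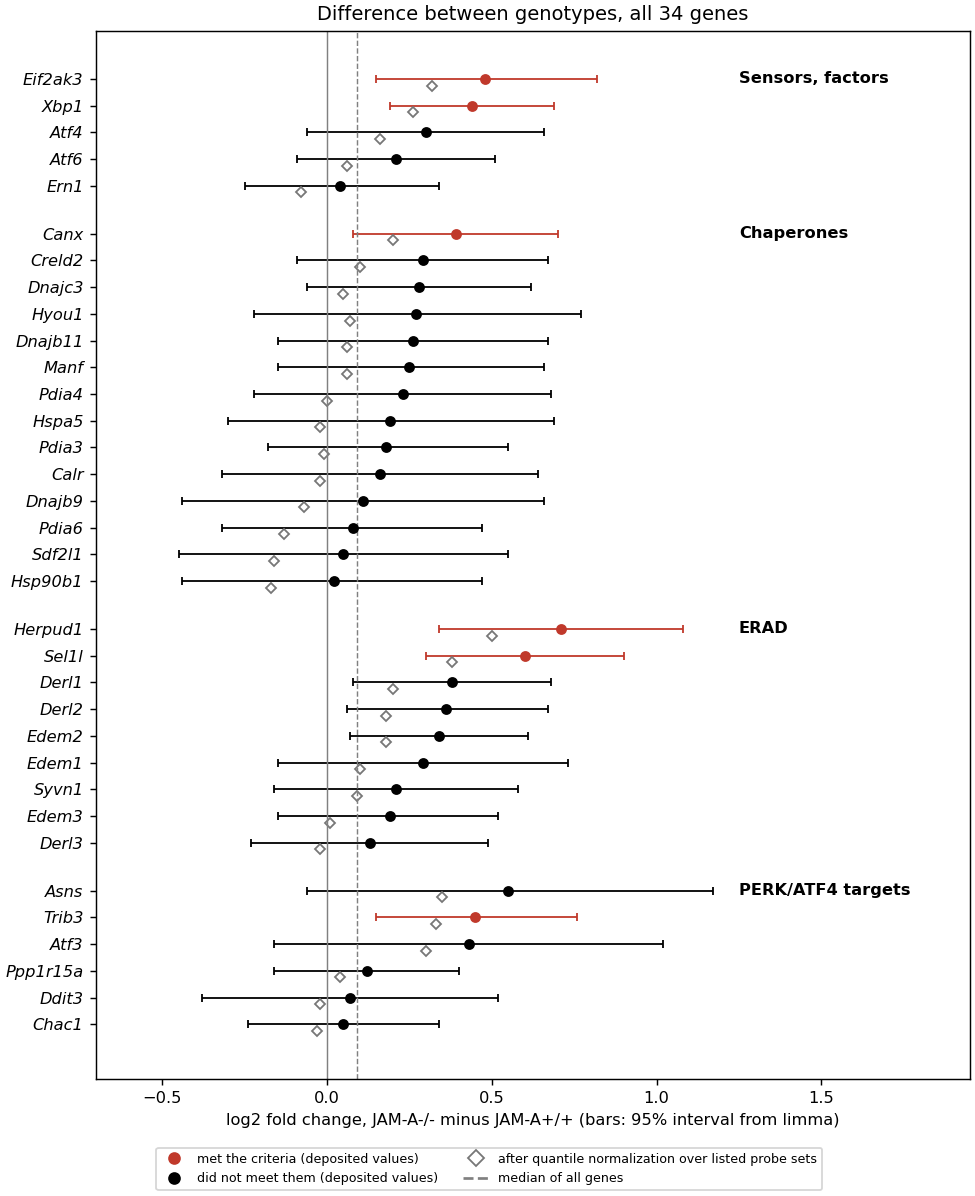
Log2 fold change of each of the 34 genes (x axis, JAM-A-/- minus JAM-A+/+) with the 95% interval from limma, grouped by role down the page; red points met the criteria, open diamonds give the value after quantile normalization over named probe sets, and the dashed line is the median of all genes (0.09). All 34 filled points lie above 0, while 12 of the diamonds lie below 0, 8 of them chaperones, with that of Pdia4 at 0 after rounding.

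The sensors and factors held 2 genes that met the criteria and 3 that did not. The criteria were met upward by 4.73% of all genes and 10.1% of the brightest, among which 4 of the 5 lay. After quantile normalization 0 of the 5 met them. Eif2ak3, which encodes the kinase PERK, read 9.05, 9.44 and 9.36 in JAM-A-/- tumors and 8.71, 8.73 and 8.96 in JAM-A+/+ tumors (log2 fold change 0.48, SE 0.15, unadjusted p = 0.0111, adjusted p = 0.357 in limma). Xbp1, the factor that drives ER expansion, read 12.78, 12.73 and 12.87 in JAM-A-/- tumors and 12.35, 12.38 and 12.33 in JAM-A+/+ tumors. Neither gene overlapped between the groups, and Xbp1 varied little within each of them. The difference of Xbp1 was 0.44 (SE 0.11, unadjusted p = 0.00363, adjusted p = 0.277 in limma). After quantile normalization it was 0.26 with an unadjusted p of 0.0967 and overlapping groups, while Eif2ak3 kept separate groups at 0.32, below the fold threshold. In bulk tumor RNA, more cells that express a gene and more of its RNA per cell cannot be told apart.

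Atf4, the factor downstream of PERK, read 8.58, 9.02 and 8.68 in JAM-A-/- tumors and 8.28, 8.52 and 8.58 in JAM-A+/+ tumors. The lowest JAM-A-/- value equalled the highest JAM-A+/+ value, and the log2 fold change of 0.30 did not meet the criteria (unadjusted p = 0.0906 in limma). Without tumor 5333 it was 0.39 and met them. Atf6, the factor that is cut in the Golgi to become active, differed by 0.21 with groups that did not overlap, but by 0.06 with overlapping groups after quantile normalization, where Atf4 differed by 0.16. Ern1, which encodes IRE1, differed by 0.04 with a 95% interval of -0.25 to 0.34, and by -0.08 after that normalization.

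**Figure D2:**
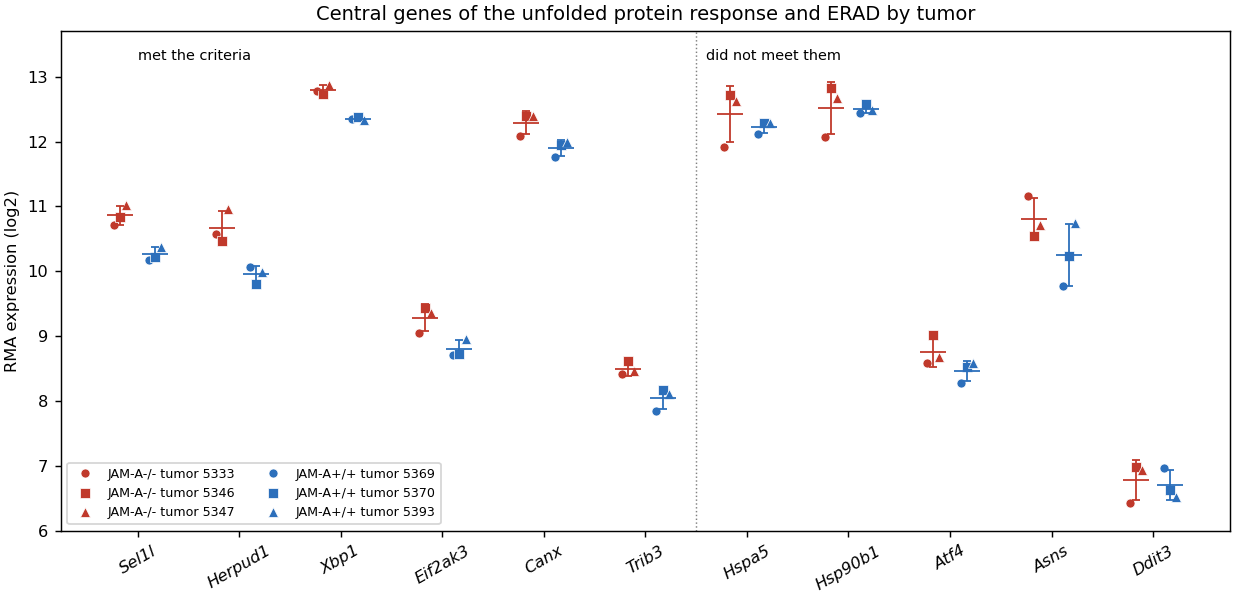
RMA expression (y axis, log2) of 11 genes in each tumor, JAM-A-/- in red left of JAM-A+/+ in blue; horizontal lines are means and bars are SD over 3 tumors. The 6 genes on the left met the criteria and their groups do not touch, whereas tumor 5333 sits below all JAM-A+/+ tumors for Hspa5 and Hsp90b1.

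Chaperones and folding enzymes were the largest set and held 1 gene that met the criteria, against 4.73% of all genes and 10.1% of the brightest. Letters known to bind the factors of the response were searched in the promoters of the RefSeq table (GRCm38.p6, 250 bases before to 50 after each start), which held 30 of the 34 genes, all but Atf6, Hyou1, Manf and Derl1. The ER stress element (ERSE, CCAAT and CCACG with 9 bases of any kind between them, either strand) is the classic site of ATF6 with NF-Y. It was found in 39 of 32851 promoters (0.119%), and 9 of these belonged to the 34 genes, 7 of them chaperones. The chaperones with it were Hspa5, Hsp90b1, Calr, Canx, Dnajc3, Pdia6 and Creld2, and the ERAD genes were Syvn1 and Derl3. Canx met the criteria while Hspa5 and Hsp90b1 did not, but no test compared these genes with each other. Their promoters are shown because they carry the same element. They lie at chr2:34771840-34772089 (+ strand) for the master chaperone Hspa5, chr10:86705445-86705694 (- strand) for Hsp90b1 and chr11:50325674-50325923 (- strand) for Canx. Each is read 5′ to 3′ towards the gene over the 250 bases before its start, with the ERSE in capitals, on the opposite strand for the second match of Hsp90b1.
Hspa5: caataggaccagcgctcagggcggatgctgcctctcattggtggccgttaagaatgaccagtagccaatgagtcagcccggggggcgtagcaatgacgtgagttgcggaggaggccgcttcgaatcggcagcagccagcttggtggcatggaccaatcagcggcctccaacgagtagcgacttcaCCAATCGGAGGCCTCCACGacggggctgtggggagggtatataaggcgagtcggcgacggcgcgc
Hsp90b1: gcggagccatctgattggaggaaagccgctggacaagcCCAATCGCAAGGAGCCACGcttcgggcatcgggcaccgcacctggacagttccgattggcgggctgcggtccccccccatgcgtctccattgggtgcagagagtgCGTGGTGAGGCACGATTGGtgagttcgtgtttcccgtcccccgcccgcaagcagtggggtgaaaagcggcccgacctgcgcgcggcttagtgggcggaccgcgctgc
Canx: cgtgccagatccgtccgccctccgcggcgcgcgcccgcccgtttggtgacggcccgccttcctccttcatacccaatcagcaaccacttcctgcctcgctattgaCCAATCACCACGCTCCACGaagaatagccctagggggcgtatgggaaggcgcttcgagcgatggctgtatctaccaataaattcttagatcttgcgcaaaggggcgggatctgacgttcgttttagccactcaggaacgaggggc

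Canx encodes calnexin, the membrane lectin that holds new glycoproteins for folding. It read 12.09, 12.39 and 12.39 in JAM-A-/- tumors and 11.76, 11.94 and 12 in JAM-A+/+ tumors (log2 fold change 0.39, SE 0.14, unadjusted p = 0.0214, adjusted p = 0.401 in limma). Its groups did not overlap, and after quantile normalization the difference was 0.20 and did not meet the criteria. Nor did Canx meet them when tumor 5346, 5347 or 5369 was left out, at 0.34, 0.34 and 0.32.

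Hspa5, which encodes BiP, the chaperone that holds the sensors silent, read 11.92, 12.72 and 12.63 in JAM-A-/- tumors and 12.12, 12.28 and 12.29 in JAM-A+/+ tumors. Hsp90b1, which encodes GRP94, read 12.07, 12.82 and 12.67 in JAM-A-/- tumors and 12.44, 12.58 and 12.49 in JAM-A+/+ tumors. Both were lowest in JAM-A-/- tumor 5333 and highest in JAM-A-/- tumors 5346 and 5347, so the JAM-A+/+ tumors lay in between. The log2 fold changes were 0.19 for Hspa5 and 0.02 for Hsp90b1, with 95% intervals of -0.30 to 0.69 and -0.44 to 0.47, and both turned to -0.02 and -0.17 after quantile normalization. The SD of Hspa5 was 0.44 over the JAM-A-/- tumors and 0.10 over the JAM-A+/+ tumors (n = 3 each).

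Parts of this arrangement recurred among the other chaperones. Of the 14 genes, 13 were higher in both JAM-A-/- tumors 5346 and 5347 than in every JAM-A+/+ tumor, the exception being Sdf2l1, a partner of the DNAJ chaperones. In 8 of the 14, tumor 5333 was lower than every JAM-A+/+ tumor: Hspa5, Hsp90b1, Calr, Dnajb9, Sdf2l1, Pdia3, Pdia6 and Manf. The shares of all genes, or of the brightest, with these orders of tumors were not computed. All 14 lay among the brightest genes. Over all genes the mean deviations were -0.03, 0.05 and 0.13 in JAM-A-/- tumors 5333, 5346 and 5347, and -0.11, -0.04 and -0.01 in JAM-A+/+ tumors. Calr encodes calreticulin, the soluble relative of calnexin, and Pdia3, Pdia4 and Pdia6 are disulfide isomerases. Their log2 fold changes were 0.16 for Calr, 0.18 for Pdia3, 0.23 for Pdia4 and 0.08 for Pdia6. Among the cochaperones, Dnajb9 differed by 0.11, Dnajb11 by 0.26, Dnajc3 by 0.28 and Sdf2l1 by 0.05. Hyou1, a nucleotide exchange factor for BiP, differed by 0.27, and the secreted ER stress proteins Manf and Creld2 differed by 0.25 and 0.29. None of these 11 genes met the criteria, their unadjusted p ranging from 0.092 to 0.81.

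The chaperone values turned on tumor 5333. Without it their median log2 fold change was 0.41, against 0.21 over all 6 tumors, and 9 of 14 met the criteria, against 1. For the ERAD genes these values were 0.39 and 0.34, with 5 and 2 of 9 meeting the criteria. The 9 were Hspa5, Hyou1, Calr, Canx, Dnajb11, Dnajc3, Pdia4, Manf and Creld2. Over all genes the median without tumor 5333 was 0.13, and 10.1% met the criteria upward. All 14 chaperones lay among the brightest genes, of which 10.1% met them upward already with all 6 tumors. The share of the brightest genes was not computed without tumor 5333. Hspa5 then differed by 0.45 (unadjusted p = 0.00997 in limma). Tumor 5333 had the narrowest distribution of the JAM-A-/- arrays, as given above, and low values of luminal epithelial markers. The mean deviation of 9 such markers from their means over the 6 tumors was -0.27, 0.20 and 0.30 in JAM-A-/- tumors and -0.33, 0.02 and 0.07 in JAM-A+/+ tumors. None of these markers met the criteria as deposited. After quantile normalization Elf5, a factor of secretory luminal cells, met them downward (-0.46, unadjusted p = 0.00475 in limma). Of the 9 markers 6 were then below 0 and 3 above, against 49.7% of all genes above. The part of luminal cells in the chaperone values was not tested. After quantile normalization, which removes the difference in distribution, the median of the chaperones was -0.01, with 6 of 14 above 0, against 49.7% of all genes. With both that normalization and tumor 5333 left out, an alternative chosen after seeing the data, their median was 0.09 and 0 of 14 met the criteria, against 2.47% of all genes upward.

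**Figure D3:**
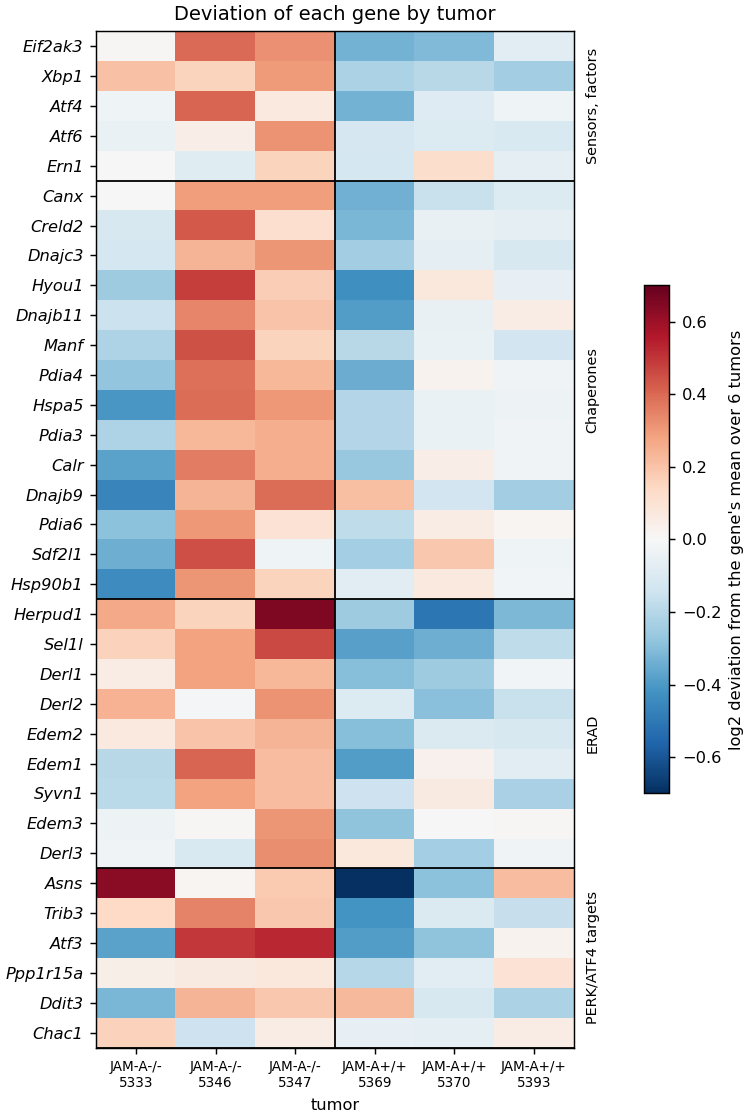
Deviation of each gene from its mean over the 6 tumors (colour, log2, red above and blue below the mean), with genes grouped by role and tumors as columns, JAM-A-/- left of JAM-A+/+. Tumor 5333 is blue across most chaperones while tumors 5346 and 5347 are red, and the upper ERAD genes are red in all 3 JAM-A-/- tumors.

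All 9 ERAD genes had log2 fold changes above 0, and 8 of 9 after quantile normalization, against 71.8% and 49.7% of all genes. Herpud1 and Sel1l, which met the criteria, belong to the HRD1 complex, the channel through which misfolded proteins leave the ER. Herpud1 is a membrane protein that recruits the ubiquitin machinery and is among the most inducible genes of the response. Sel1l is the adaptor that stabilizes the ligase HRD1. Their promoters, at chr8:94386179-94386428 (+ strand) and chr12:91849158-91849407 (- strand), are shown because they belong to the 2 members with the largest fold changes and differ in these letters. ERSE-II (ATTGG and CCACG with 1 base of any kind between them, either strand), a shorter element of ATF6 and XBP1, was found in 12 promoters (0.0365%), among them those of Herpud1 and Dnajb11. It shares CCACG with ERSE, and its ATTGG is CCAAT read from the opposite strand. Capitals mark ERSE-II and, upstream of it on the opposite strand, the C/EBP-ATF composite site described with the ATF4 targets, and the Sel1l window held none of the letters searched.
Herpud1: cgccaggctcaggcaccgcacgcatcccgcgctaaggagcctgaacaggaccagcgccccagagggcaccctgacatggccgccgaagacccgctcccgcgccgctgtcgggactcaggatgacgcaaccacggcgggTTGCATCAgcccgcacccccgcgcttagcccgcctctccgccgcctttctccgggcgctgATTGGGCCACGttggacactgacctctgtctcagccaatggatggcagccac
Sel1l: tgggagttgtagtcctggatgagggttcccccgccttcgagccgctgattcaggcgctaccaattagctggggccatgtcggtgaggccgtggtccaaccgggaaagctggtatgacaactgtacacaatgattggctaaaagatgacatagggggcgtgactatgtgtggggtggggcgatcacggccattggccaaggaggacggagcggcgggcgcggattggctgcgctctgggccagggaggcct

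Herpud1 read 10.57, 10.46 and 10.96 in JAM-A-/- tumors and 10.06, 9.8 and 9.99 in JAM-A+/+ tumors. The groups were well apart, with tumor 5347 the highest. The log2 fold change of 0.71 (1.64-fold, SE 0.16, unadjusted p = 0.00235, adjusted p = 0.256 in limma) was the largest of the 34. It was 0.50 after quantile normalization and met the criteria in all 15 alternatives tried, over which it lay between 0.44 and 0.81.

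Sel1l read 10.72, 10.84 and 11.02 in JAM-A-/- tumors and 10.18, 10.22 and 10.38 in JAM-A+/+ tumors. Every JAM-A-/- tumor was above every JAM-A+/+ tumor under both scalings. The log2 fold change was 0.60 (1.52-fold, SE 0.13, unadjusted p = 0.00174, adjusted p = 0.247 in limma), and it was 0.38 after quantile normalization, just under the fold threshold, with an unadjusted p of 0.00242.

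The other ERAD genes ranged from 0.13 to 0.38. Derl1, a derlin of the exit channel, read 9.48, 9.71 and 9.66 in JAM-A-/- tumors and 9.13, 9.18 and 9.41 in JAM-A+/+ tumors. Its relative Derl2 read 9.83, 9.57 and 9.9 in JAM-A-/- tumors and 9.49, 9.29 and 9.43 in JAM-A+/+ tumors. Edem2, a mannosidase that marks glycoproteins for disposal, read 9.16, 9.29 and 9.33 in JAM-A-/- tumors and 8.79, 8.99 and 8.98 in JAM-A+/+ tumors. For none of these 3 genes did the groups overlap. Single tumors decided which of them met the criteria: Derl1 did without tumor 5333 or 5393 (0.45 and 0.46), Derl2 without tumor 5346 or 5369 (0.46 and 0.41) and Edem2 without tumor 5333 (0.39), as did Edem1 (0.46). The relatives of Edem2, Edem1 and Edem3, differed by 0.29 and 0.19, Syvn1, which encodes the ligase HRD1 itself, by 0.21 and Derl3 by 0.13, all with overlapping groups. As a group, 9 of 9 were above the median of all genes, with a median of 0.34, and 5 of 9 had separate groups, against 12.4% of all genes and 18.8% of the brightest. After quantile normalization the ERAD median was 0.18 and 3 had separate groups, Herpud1, Sel1l and Edem2, against 7.28% of all genes and 11.1% of the brightest. Derl1 and Derl2 then differed by 0.20 and 0.18 with overlapping groups.

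Targets of PERK and ATF4 were mixed. The C/EBP-ATF composite site (TGATGNAA, either strand), to which ATF4 and CHOP bind with C/EBP partners, was found in 1304 promoters (3.97%) and in 4 of the 6 targets, Atf3, Trib3, Asns and Chac1, as well as in Herpud1. The Asns promoter, at chr6:7693210-7693459 (- strand), is shown because this site is the nutrient-sensing element of the best studied ATF4 target, and its letters stand in capitals.
Asns: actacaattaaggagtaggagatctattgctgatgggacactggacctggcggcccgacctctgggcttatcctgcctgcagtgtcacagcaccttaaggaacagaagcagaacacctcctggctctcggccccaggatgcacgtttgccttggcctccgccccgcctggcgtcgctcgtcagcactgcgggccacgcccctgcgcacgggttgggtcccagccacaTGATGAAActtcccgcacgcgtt

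Trib3, a pseudokinase that damps ATF4 signalling, read 8.41, 8.62 and 8.46 in JAM-A-/- tumors and 7.85, 8.17 and 8.11 in JAM-A+/+ tumors. The groups did not overlap under either scaling. Its log2 fold change was 0.45 (SE 0.13, unadjusted p = 0.00963, adjusted p = 0.343 in limma), and 0.33 after quantile normalization, below the fold threshold.

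Asns, the asparagine synthetase, read 11.16, 10.54 and 10.71 in JAM-A-/- tumors and 9.77, 10.24 and 10.74 in JAM-A+/+ tumors. The JAM-A+/+ tumors were spread widely, and tumor 5393 was above JAM-A-/- tumors 5346 and 5347. The difference of 0.55 (SE 0.26, unadjusted p = 0.0702 in limma) did not meet the criteria. Without JAM-A+/+ tumor 5393 it was 0.80 and met them, with an unadjusted p of 0.0117, and over all tumors after quantile normalization it was 0.35. Tumor 5333, low for the chaperones, was the highest tumor for Asns.

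Atf3, an early stress factor, read 7.65, 8.52 and 8.55 in JAM-A-/- tumors and 7.63, 7.74 and 8.05 in JAM-A+/+ tumors, so that tumor 5333 read with the JAM-A+/+ tumors (0.43, unadjusted p = 0.127 in limma). Without tumor 5333 the difference was 0.73 and met the criteria, and over all tumors after quantile normalization it was 0.30. Ddit3, which encodes the death-promoting factor CHOP, read 6.42, 6.98 and 6.93 in JAM-A-/- tumors and 6.97, 6.63 and 6.52 in JAM-A+/+ tumors. It overlapped fully and differed by 0.07 with a 95% interval of -0.38 to 0.52. Chac1, which degrades glutathione, and Ppp1r15a (GADD34), which restores translation, differed by 0.05 and 0.12. Ddit3, Chac1 and Ppp1r15a were also the dimmest of the 34, with means of 6.74, 7.08 and 6.83 over the 6 tumors.

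Set side by side, the ATF6/XBP1 arm of 23 chaperones and ERAD genes had a median log2 fold change of 0.25 with 3 genes meeting the criteria (13.0%). The 6 targets of PERK and ATF4 had 0.28 with 1. The criteria were met upward by 4.73% of all genes and 10.1% of the brightest, among which 22 of the 23 and 1 of the 6 lay. The medians of the arms differed by -0.02, and this difference lay between -0.07 and 0.09 when each tumor was left out in turn. It was wider after quantile normalization, at -0.11 over named probe sets (0.06 for the ATF6/XBP1 arm and 0.17 for the targets) and -0.18 over all probe sets (0.07 and 0.25). Over named probe sets and without tumor 5333 it was 0.01. Within the ATF6/XBP1 arm the medians were 0.21 for chaperones and 0.34 for ERAD, or -0.01 and 0.18 after normalization over named probe sets. By tumor, the mean deviation of the ERAD genes was 0.04, 0.17 and 0.33 in JAM-A-/- tumors and -0.23, -0.18 and -0.12 in JAM-A+/+ tumors. That of the PERK and ATF4 targets was 0.05, 0.17 and 0.20 in JAM-A-/- tumors and -0.27, -0.15 and 0.0 in JAM-A+/+ tumors. These groups of genes were separate between the genotypes, whereas the chaperones, at -0.26, 0.35 and 0.21 in JAM-A-/- tumors and -0.23, -0.01 and -0.06 in JAM-A+/+ tumors, overlapped. The means over groups carry no test, since their genes share the same tumors.

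**Figure D4:**
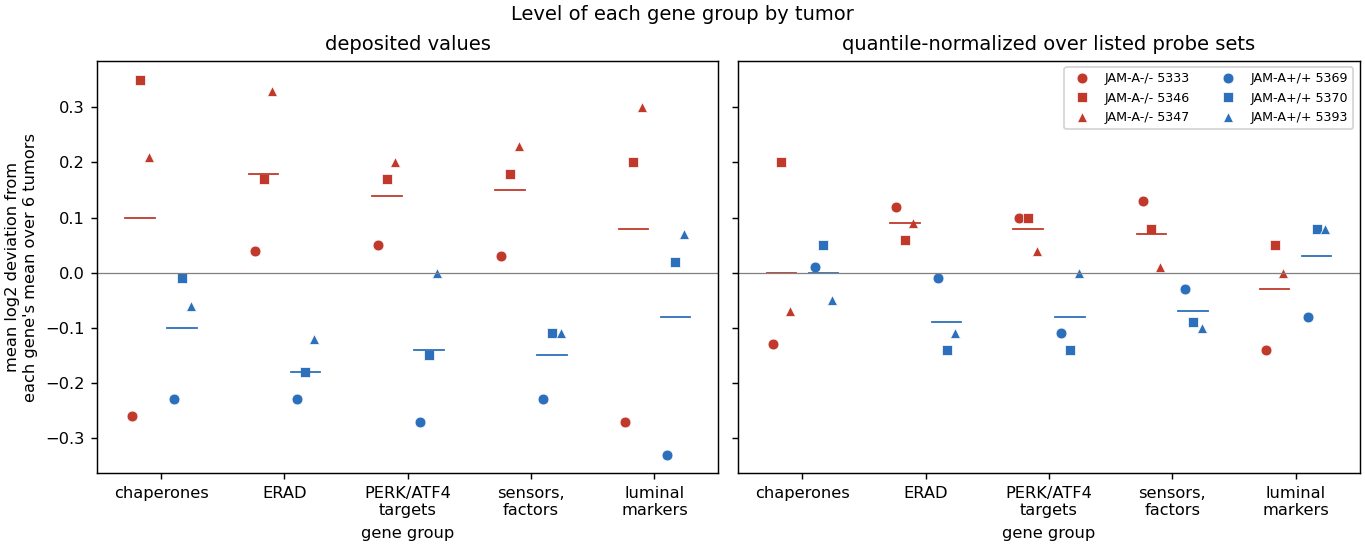
Mean log2 deviation (y axis) of the genes of each group from their means over the 6 tumors, with 1 point per tumor, JAM-A-/- in red left of JAM-A+/+ in blue and a line at the mean of 3 tumors; deposited values on the left, quantile-normalized values on the right. ERAD genes, PERK and ATF4 targets and sensors stay apart between genotypes in both panels, chaperones and luminal markers overlap in both.

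The promoter letters were set beside the fold changes within the ATF6/XBP1 arm. The 9 genes with an ERSE had a median log2 fold change of 0.19 with 1 meeting the criteria, and the 11 without it had 0.26 with 2. The 2 genes with an ERSE-II, Herpud1 and Dnajb11, had a median of 0.48 with 1 meeting the criteria, and the 18 without it 0.20 with 2. The C/EBP-ATF site was held in this arm by Herpud1 alone (0.71), and the 19 others had a median of 0.21 with 2 meeting the criteria. The UPR element TGACGTGG, whose opposite strand also begins with CCACG, was found in 222 promoters (0.676%) and in none of the 30 matched genes. These matches describe letters within short windows and carry no statement on binding.

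The wider pathway was read through further lists, which lie outside the 34 but for Dnajc3. Against 4.73% of all genes and 10.1% of the brightest, 4 of 18 other ER folding genes, 14 of them among the brightest, met the criteria upward: Fkbp14 (0.50) and P4hb (0.47), which act on collagen and disulfide folding, the cargo lectin Lman1 (0.44) and Erp29 (0.41). Of 19 genes of translocation and export, 18 of them among the brightest, 4 met them: the KDEL receptor Kdelr3 (0.76), the translocon subunit Sec61a1 (0.44), Sec23b of the COPII coat (0.39) and Srprb of the signal recognition particle receptor (0.38). Of 18 other ERAD genes, 16 among the brightest, Nploc4, a cofactor of the p97 ATPase, met them (0.55). The medians of these lists were 0.30, 0.29 and 0.25, and none of their genes met the criteria downward. After quantile normalization the medians were 0.11, 0.10 and 0.07, and Fkbp14 and Kdelr3 remained. Other ERAD genes thus had a lower median than other ER folding genes, the reverse of the order of ERAD genes and chaperones among the 34. As deposited, the mean deviations of the other ERAD genes overlapped between genotypes. They were -0.04, 0.12 and 0.26 in JAM-A-/- tumors and -0.21, -0.1 and -0.02 in JAM-A+/+ tumors.

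Other ATF4 targets held the largest log2 fold change among the genes of these lists. Ddit4, which encodes the mTORC1 inhibitor REDD1 and also responds to hypoxia, read 9.8, 10.08 and 9.99 in JAM-A-/- tumors and 8.59, 8.98 and 9.03 in JAM-A+/+ tumors. Its log2 fold change was 1.09 (SE 0.16, unadjusted p = 0.000135, adjusted p = 0.198 in limma). Of 28 measured genes of this list, 18 of them among the brightest, 5 met the criteria upward, against 4.73% of all genes and 10.1% of the brightest: Ddit4, the stress protein Nupr1 (0.68), the serine synthesis enzyme Psat1 (0.64) and Mthfd2 (0.59) and Shmt2 (0.45) of mitochondrial folate metabolism. The median of the list was 0.32, and after quantile normalization it was 0.15, with Ddit4, Nupr1 and Mthfd2 meeting the criteria, against 1.78% of all genes. None of 6 genes that control eIF2α phosphorylation (smallest p for Dnajc3, also a member of the 34, at 0.28), 12 other ER stress factors (Tmbim6, 0.37) or 8 genes of ER stress death (Pmaip1, 0.28) met the criteria, and their medians were 0.24, 0.19 and 0.08.

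**Figure D5:**
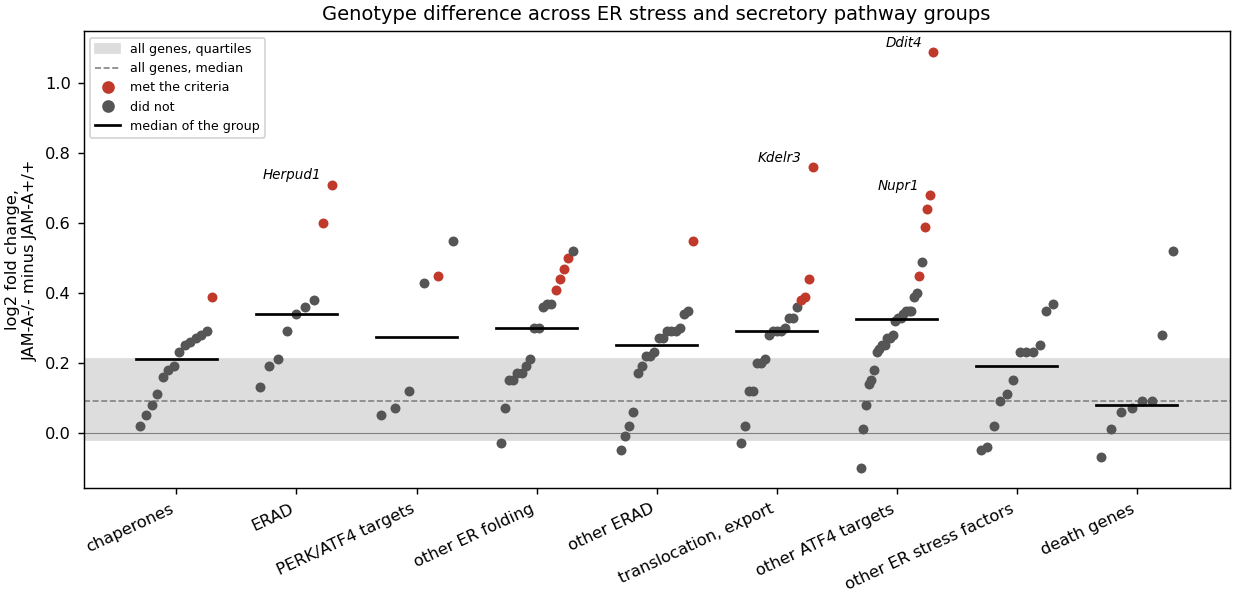
Log2 fold change (y axis, JAM-A-/- minus JAM-A+/+) of every measured gene in 9 groups of the ER stress and secretory pathways; red points met the criteria, black lines are medians of the groups, and the grey band and dashed line give the quartiles (-0.02 and 0.21) and the median (0.09) of all genes. Ddit4 stands highest at 1.09, and the genes of ER stress death have a median of 0.08.

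Secretory cells of other kinds use this response strongly, so their markers were read beside it. Of 9 plasma and B cell markers none met the criteria, their median was 0.01 and their mean deviations lay between -0.05 and 0.05 in JAM-A-/- tumors and between -0.01 and 0.02 in JAM-A+/+ tumors. Prdm1, a plasma cell factor, differed by -0.31 with separate groups (unadjusted p = 0.0417 in limma) and met the criteria downward after quantile normalization (-0.39, unadjusted p = 0.0156 in limma). Jchain, the defining plasma cell gene, read 3.83 to 4.72 over all tumors, below the 5.11 under which the 4992 dimmest genes lie. Of 7 milk genes 6 had log2 fold changes below 0 with a median of -0.94, and Csn1s1 (-1.70) and Btn1a1 (-0.75) met the criteria downward. Over all genes 0.592% met them downward. The mean deviations of the milk list ran from -0.47 to -0.35 in JAM-A-/- tumors and from -0.79 to 1.78 in JAM-A+/+ tumors. Of 9 markers of serous and mucous secretory cells 7 were above 0, against 71.8% of all genes, and their median was 0.12. The criteria were met upward by 3, against 4.73% of all genes: Pip (2.92), Aqp5 (0.82) and Bhlha15 (0.64), a transcription factor of professional secretory cells. The lowest of the list was Amy1 at -0.26. The mean deviations of this list ran from -0.04 to 0.43 in JAM-A-/- tumors and from -0.49 to -0.09 in JAM-A+/+ tumors. Pip read 11.93 in tumor 5333 against 7.57 or less elsewhere, and its groups overlapped. The part of these markers in the values of the 34 genes was not tested.

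Some markers of the stroma and of basal cells met the criteria too. Of 7 fibroblast markers Col1a2 (0.58) and Pdgfra (0.45) met the criteria. So did Pecam1 (0.60) of 6 endothelial markers and Acta2 (0.90) of 7 basal markers, all higher in JAM-A-/- tumors. Over all genes 4.73% met them upward, and 10.1% of the brightest, among which 6 fibroblast, 0 endothelial and 3 basal markers lay. The medians of these lists were 0.45, 0.38 and 0.08, and their lowest values were -0.04, 0.05 and 0.01. The fibroblast list deviated by -0.09, 0.16 and 0.46 in JAM-A-/- tumors and by -0.67, 0.19 and -0.06 in JAM-A+/+ tumors. None of 7 macrophage or 5 adipocyte markers met the criteria. JAM-A+/+ tumor 5369 was the lowest tumor for the sensors, the ERAD genes and the PERK and ATF4 targets. It was also the lowest for the fibroblast, endothelial, luminal, basal, macrophage, adipocyte, milk and serous and mucous lists. Over all genes too it had the lowest mean deviation, at -0.11. Without tumor 5369 Canx and Trib3 no longer met the criteria, at 0.32 and 0.36. The part of the stroma in these values was not tested.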

How the data were processed

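Each tumor's RNA was hybridized to 1 array. The authors deposited expression on the log2 scale, rounded to 2 decimals and, per the submitters' processing notes, made by RMA (Affymetrix Expression Console 1.1). RMA gives the arrays a common probe distribution, so total RNA is not seen. The sources used here give no other settings, nor a litter, batch or scan date for single arrays. Groups follow the titles and genotypes of the labels, and the tissue entry of tumor 5347 leaves out its lack of JAM-A.

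Fold changes and p-values were computed with limma 3.58.1 in R 4.3.3 over all probe sets (default empirical Bayes, 3 against 3 tumors, no covariate, Benjamini-Hochberg over all probe sets), a procedure checked on simulated data. Criteria were a fold of at least 1.3 with an unadjusted p under 0.05. An exact permutation test of 1 gene cannot go below 0.1 here. The annotation pairs 21789 probe sets with 1 symbol, 1621 with several and does not list 12147, and 21698 matched the RefSeq gene table of GRCm38.p6. Tables were handled with pandas 2.3.3 in Python 3.11.15. Dnajc3 has 2 probe sets with identical values, and a dim second probe set of Pdia4 differed by -0.17.

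The members and lists were chosen with earlier results of these data known. Named were all 34 members, with values in every tumor for those that met the criteria and for Hspa5, Hsp90b1, Atf4, Ddit3 and Asns, and from other lists up to 4 genes meeting the criteria, taken by smallest p, or 1 gene of a pathway list without any. Psat1, Prdm1, Elf5, Atf3, Derl1, Derl2 and Edem2 were given or described beyond this rule after their values were seen. Alternatives changed the test, the prior, array weights, scaling, the filter on dim probe sets, the probe set of a gene, the fold threshold, the arms' members and the tumors.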

Additional observations from a re-analysis of the deposited data

How the results depend on the processing

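The 6 members that met the criteria were the same under the equal-variance test, the trended robust prior, the filter on dim probe sets and the mean over probe sets. The count was 11 with array weights, 10 with median centring, 2 with quantile normalization of all probe sets, 1 over named probe sets and 2 at a fold of 1.5. It ran from 5 to 19 when each tumor was left out, 19 being without tumor 5333. The median of all genes rose from 0.09 to 0.15 with median centring and 0.13 without tumor 5333, and was 0.08 with array weights. The higher counts with median centring and without tumor 5333 came beside these rises of the median, whose part in the counts was not tested. Of all genes, 4.73% met the criteria upward as deposited, 10.1% without tumor 5333 and 1.78% after normalization over named probe sets. Such a share was not computed for array weights or median centring. No member passed the adjustment in any alternative that refitted the model, and none met the criteria downward in any of them.

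The median of the ATF6/XBP1 arm was 0.07 and 0.06 under the quantile normalizations, the first with an arm difference of -0.18, and 0.15 to 0.40 with each tumor left out, over which the PERK and ATF4 targets lay between 0.19 and 0.34 and the arm difference between -0.07 and 0.09. Counting Herpud1 among the PERK and ATF4 targets gave them 0.43 and a difference of -0.19. Normalizing over named probe sets without tumor 5333, chosen after seeing the data, left 2 members, Herpud1 and Atf3, with 0.09 for the PERK and ATF4 targets and an arm difference of 0.01.

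Members changed sign, all of them among those that did not meet the criteria. Array weights gave Ern1 -0.05 and Chac1 -0.04. Quantile normalization of all probe sets gave Ern1 -0.04, Hspa5 -0.01, Hsp90b1 -0.18, Calr -0.02, Dnajb9 -0.06, Sdf2l1 -0.15, Pdia3 -0.02 and Pdia6 -0.12. Over named probe sets these were -0.08, -0.02, -0.17, -0.02, -0.07, -0.16, -0.01 and -0.13, with Pdia4 just under 0 (0.0 when rounded), Derl3 -0.02, Ddit3 -0.02 and Chac1 -0.03. Without tumor 5333 as well, Ern1 was -0.13, Hsp90b1 -0.09, Sdf2l1 -0.06, Pdia6 -0.09, Edem3 -0.01, Derl3 -0.05 and Chac1 -0.14. With single tumors left out, signs also changed within -0.02 to 0.13 for Chac1, -0.13 to 0.24 for Hsp90b1, -0.16 to 0.24 for Sdf2l1, -0.06 to 0.24 for Pdia6, -0.03 to 0.25 for Ddit3, -0.02 to 0.12 for Ern1, -0.06 to 0.37 for Dnajb9 and 0.00 to 0.21 for Derl3. The cause of these changes was not tested.

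No paired analysis was possible because the tumor numbers of the labels are not shared between the groups. With 3 arrays per group, small differences could not be told from the spread between tumors.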
